A study of Xenopus laevis with 6 samples.

Results

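Proteasome genes were read from the gene table as all rows whose symbol begins with psma, psmb, psmc, psmd, psme, psmf or psmg followed by a digit. There were 85 such genes among the 42638 in the table, 45 of them L and 40 of them S copies, from 49 base symbols. Xenopus laevis is an allotetraploid frog that carries most genes as a pair of homeologs, one on the L and one on the S subgenome, and 36 of the base symbols had both copies. The samples were whole wild-type embryos (genotype WT, no strain given) kept at 14 °C for 7 days until stage 35. Embryos of one group stayed in 0.1X MMR (Marc's Modified Ringer's, a salt solution) throughout, and those of the other group were moved to 0.75X MMR, the saltier solution in which Xenobots are raised, at stage 9. Each group had 3 samples of 10 pooled embryos, so that values of single embryos cannot be read. The purpose of the comparison was to learn whether the saltier medium by itself changes gene expression in the embryo. The study describes its replicates in general as independent samples from separate batches, but the labels of these pools do not name clutches or batches, and p-values measure the spread between these pools, part of which may be technical.

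The proteasome is the protease of the cytosol and nucleus that degrades proteins tagged with ubiquitin. Its barrel-shaped core is built of outer rings of alpha subunits (psma genes) and inner rings of beta subunits (psmb genes), some of which hold the catalytic sites. A regulatory cap recognises the tagged protein (psmd genes) and unfolds it with a ring of ATPases (psmc genes), while psme genes encode alternative caps, psmg genes and some psmd genes encode assembly chaperones, and psmf1 encodes an inhibitor. In cells of the immune system and after interferon the catalytic beta subunits are replaced by psmb8, psmb9 and psmb10, which makes the immunoproteasome known for producing peptides for presentation by MHC class I.

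The expected counts of a sample summed to between 5024957 and 7045215, and the proteasome genes took 0.384% to 0.414% of them. Values are given as CPM (counts scaled to the library size after TMM normalization) unless said otherwise. They are not divided by transcript length, so they are compared within a gene, and the order of different genes is an order of counts and not of transcript numbers. Detection was set at 3 counts, equal to 0.426 to 0.597 CPM in these libraries, which allows for counting error alone. Markers of muscle, notochord, epidermis, nerve, eye, pigment and multiciliated cells were present in every sample (25 of 28 symbols matched, 35 of 39 genes tested), whereas the globin genes hba1 and hbg1 and the albumin gene alb had at most 4.09 counts in any sample and hba3.L had 596 to 1357. Of the 35 tested markers 0 passed the FDR limit of 0.05 between the media (edgeR), where 0.0178% of all tested genes did. An unadjusted p under 0.05 was reached by 4 (11.4%, where 4.39% of all tested genes reached it), of which atp6v1b1.L of ionocytes (log2 fold change -0.76, adjusted p = 0.725), apoa1.S and tnni2.S were lower and tekt2.S was higher in 0.75X MMR, and the summed level of the list was 13760 to 14650 CPM in 0.1X MMR against 12160 to 15110 CPM in 0.75X MMR. In pooled whole embryos, fewer cells of a type and less RNA per cell cannot be told apart, for every result that follows.

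No proteasome gene passed the test between the media. Of the 85 genes, 78 passed the filter (CPM over 0.6 in at least 3 samples) and were tested with edgeR (quasi-likelihood test, Benjamini-Hochberg adjustment over 28075 genes), and 0 of them passed an FDR of 0.05. Of all tested genes 0.0178% did, 0.00712% being higher and 0.0107% lower in 0.75X MMR. The lowest FDR of a proteasome gene was 0.9997. By DESeq2 and by limma-voom the count was also 0. An unadjusted p under 0.05 was reached by 1 gene (1.28%) with edgeR, by 2 with limma-voom and by 0 with DESeq2. Of all tested genes 4.39% reached it with edgeR, 4.43% with limma-voom and 1.49% with DESeq2. With single samples left out, 77 or 78 proteasome genes were tested with edgeR. The count at this unadjusted p was 0, 1 and 1 without 0.1X MMR replicates 1, 2 and 3. Of all tested genes 4.26%, 5.05% and 3.85% reached it in these fits. Without 0.75X MMR replicates 1, 2 and 3 the count was 2, 3 and 4, where 4.13%, 4.74% and 4.31% of all tested genes reached it. The log2 fold change, given throughout as 0.75X MMR over 0.1X MMR, was below 0 for 40 and above 0 for 38 of the 78 genes (51.3% below, where 50.4% of all tested genes were below), and its median was -0.008 against -0.001 for all tested genes. The samples of the media did not overlap for 3 genes (3.85%), 2 higher and 1 lower in 0.75X MMR, where this was so for 9.74% of all tested genes (4.77% higher and 4.97% lower).

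The size of a change that these data leave room for was small for most of the genes. The 95% interval of the log2 fold change from limma-voom lay within 1 either side of 0 for 76 of the 78 genes (80.6% of all tested genes) and within 0.5 for 67 (51.4% of all tested genes). Because the interval widens at low counts, genes averaging at least 50 counts were also taken alone. Of 70 such proteasome genes 66 (94.3%) had an interval within 0.5, where 83.7% of all genes with such counts did. The spread between samples of one medium had a median of 0.116 (SD of log2 CPM pooled over the media) for these 70 genes and 0.130 for the 14300 tested genes with mean counts in the same range (61.1 to 988), with 46 of the 70 below the latter value. Within these limits the proteasome genes and the other genes were not matched in counts. The part of count level in the narrower intervals and the lower spread was therefore not tested. The 2 tested genes with an interval beyond 1 were psme1.S and psmg3.L, both with few counts.

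**Figure D1:**
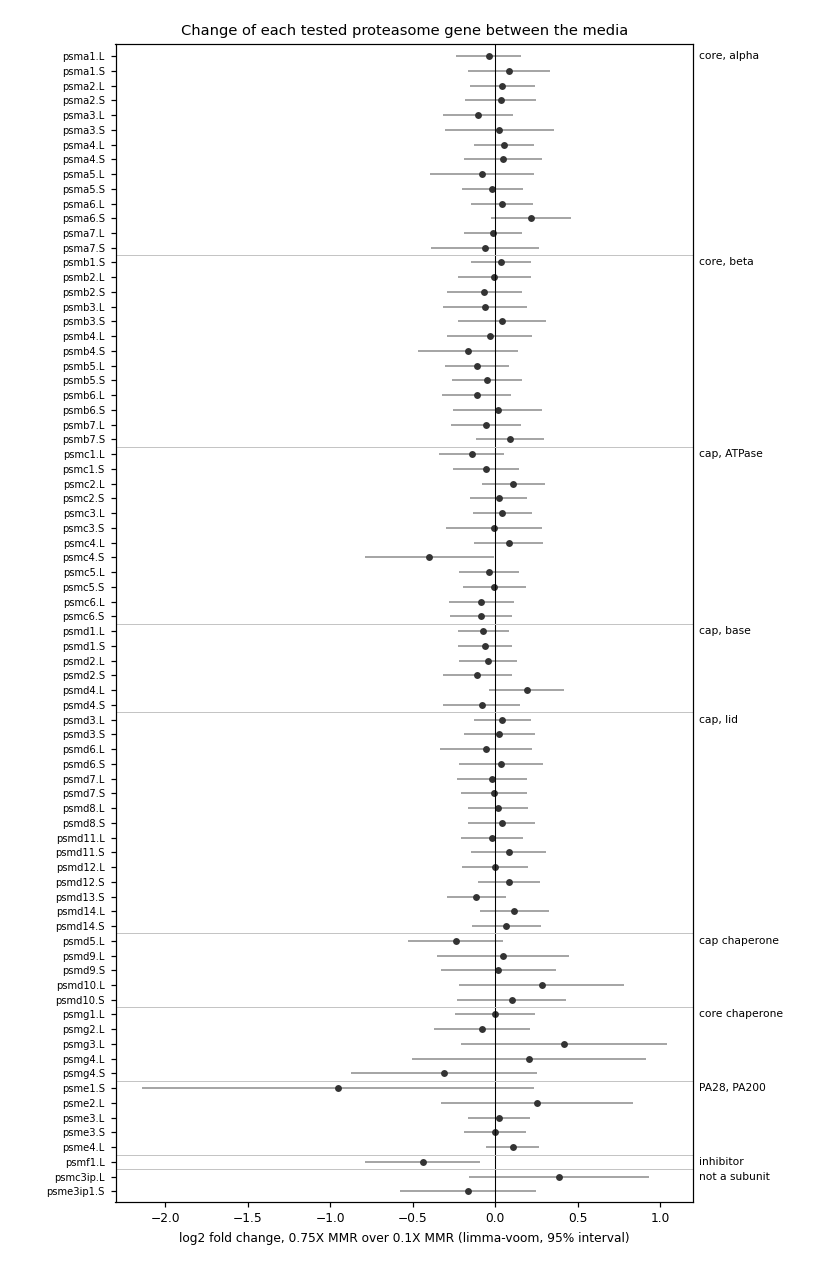
Log2 fold change of each tested proteasome gene (0.75X MMR over 0.1X MMR, 3 samples each) on the horizontal axis with its 95% interval from limma-voom, with genes ordered by role from top to bottom. Of 78 intervals, 76 lie within 1 either side of 0, and the widest belongs to psme1.S, a gene with a mean of 4.17 counts.

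The alpha subunits form the gate through which proteins enter the core. All 14 alpha genes were tested, 8 had a log2 fold change above 0 and 6 below, between -0.11 and 0.23. Their summed level was 647, 624 and 638 CPM in the samples in 0.1X MMR against 676, 649 and 616 CPM in those in 0.75X MMR, so that the lowest sum of both groups was in 0.75X MMR replicate 3 and the highest in 0.75X MMR replicate 1. The gene with the most counts was psma5.S, at 63.2, 63.4 and 69.3 CPM in 0.1X MMR against 69.3, 63.5 and 60.4 CPM in 0.75X MMR. The one with the fewest was psma3.S, at 9.99, 11.2 and 13.5 CPM against 11.8, 11.0 and 11.8 CPM. In both genes the groups overlapped. The largest log2 fold change among the alpha genes was that of psma6.S, at 0.23 (unadjusted p = 0.0587 and adjusted p = 0.9997 by edgeR's quasi-likelihood test). Its 95% interval from limma-voom was -0.03 to 0.46. This gene is named here after its values were seen. Reads were divided between psma6.L and psma6.S. With both copies added up, the log2 fold change was 0.14 (unadjusted p = 0.137, adjusted p = 0.9998 by edgeR's quasi-likelihood test).

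The beta subunits of the core include the proteolytic ones. All 13 constitutive beta genes of the symbol rule were tested. Their log2 fold changes were -0.17 to 0.09, of which 9 were below 0 and 4 above. Their sum was 567, 535 and 555 CPM in 0.1X MMR against 546, 553 and 515 CPM in 0.75X MMR, again with overlap. Another gene, LOC121393661, annotated as proteasome subunit beta type-1-B-like, lies outside the rule and is not in this sum. It had 267 to 395 counts. The gene with the most counts was psmb4.L, at 60.0, 79.1 and 74.2 CPM in 0.1X MMR against 76.2, 73.2 and 58.4 CPM in 0.75X MMR. The one with the fewest, psmb3.S, had the smallest spread of the tested genes (pooled SD of log2 CPM 0.05), at 14.7, 14.9 and 15.1 CPM in 0.1X MMR against 15.3, 16.2 and 14.8 CPM in 0.75X MMR.

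The 3 catalytic subunits of the constitutive core were well covered in every sample. Psmb5, the subunit with chymotrypsin-like activity, had 65.8, 58.1 and 66.2 CPM from its L copy in 0.1X MMR against 59.1, 62.1 and 54.8 CPM in 0.75X MMR, and its S copy had 32.1, 30.8 and 35.4 CPM against 30.8, 30.7 and 32.9 CPM. Psmb6, the subunit with caspase-like activity, had 36.6, 36.8 and 39.4 CPM from psmb6.L in 0.1X MMR against 37.9, 33.4 and 32.8 CPM in 0.75X MMR, and psmb6.S had 17.3, 19.4 and 22.0 CPM against 18.4, 19.2 and 20.9 CPM. Psmb7, the subunit with trypsin-like activity, had 52.4, 49.2 and 41.8 CPM from psmb7.L in 0.1X MMR against 47.5, 46.7 and 44.3 CPM in 0.75X MMR, and psmb7.S had 41.1, 35.9 and 36.7 CPM against 38.5, 42.7 and 40.5 CPM. The groups overlapped in all 6 genes, and their log2 fold changes lay between -0.11 (psmb5.L and psmb6.L) and 0.09 (psmb7.S).

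The immunoproteasome subunits lay at or below the detection floor in these embryos. Psmb8, which takes the place of psmb5, was annotated as psmb8.L only (chr8L:64980883-64989992, positions on RefSeq assembly Xenopus_laevis_v10.1 here and throughout) and had 2, 1 and 1 counts in 0.1X MMR against 3, 0 and 2 counts in 0.75X MMR. Psmb9, which takes the place of psmb6, was annotated as psmb9.S only (chr8S:80855328-80876135) and had 0, 1 and 0 counts in 0.1X MMR against 0 in all samples in 0.75X MMR. Psmb10, the counterpart of psmb7, was not matched by its symbol and was not analysed here. No sample had more than the floor of 3 counts for either gene, and neither gene passed the filter. Tested without the filter, neither differed between the media (unadjusted p = 0.778 for psmb8.L and 0.368 for psmb9.S, adjusted p = 1 and 0.977 by edgeR's quasi-likelihood test), at a depth where a change in either would be hard to detect.

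Set against the constitutive catalytic subunits, psmb8 and psmb9 together had 10 counts over the 6 samples (5 in each medium) where psmb5, psmb6 and psmb7 had 8439 from both copies. This is 0.118% of the counts of these genes, with an exact (Clopper-Pearson) 95% interval of 0.0568% to 0.218% that covers counting error only. Against psmb5 and psmb6 alone, the subunits that these genes replace, the share was 0.187% (exact 95% interval 0.0898% to 0.344%), and it was 0.201% (0.117% to 0.322%) of the original set when psmb7.2, a gene described in the next paragraph, was counted with them. Both were computed after the data were seen. Per sample the share against psmb5, psmb6 and psmb7 was 0.116%, 0.141% and 0.0833% in 0.1X MMR against 0.214%, 0% and 0.145% in 0.75X MMR. The intervals of all samples overlapped, and the sample without a count had an upper limit of 0.278%. Read per subunit, psmb5 had 686, 546 and 505 counts from both copies in 0.1X MMR against 543, 523 and 536 in 0.75X MMR, psmb6 had 377, 345 and 305 against 340, 296 and 328, and psmb7 had 655, 523 and 390 against 519, 504 and 518.

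Other beta genes outside the constitutive set also lay below the floor. A pair annotated as psmb7.2, whose place in the constitutive or the immunoproteasome core is not settled by the files, lies on the same chromosomes as psmb8.L and psmb9.S, with psmb7.2.L (chr8L:65234541-65249683) at 0, 0 and 2 counts in 0.1X MMR against 1, 2 and 2 counts in 0.75X MMR. The S copy (chr8S:81133397-81142179) was at 0 in every sample. Psmb11.L (chr1L:151447805-151449288), which in mammals encodes the catalytic beta subunit of the thymus, was also at 0 in every sample, which allows up to 0.426 to 0.597 CPM.

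Genes of the pathway that uses immunoproteasome peptides were looked at for comparison, as a list of antigen processing and interferon response genes (12 of 17 symbols matched, 19 genes, 14 tested). The transporter genes tap1.L and tap2.L, which carry peptides into the endoplasmic reticulum, had 2, 0 and 0 and 1, 0 and 0 counts in 0.1X MMR against 2, 0 and 2 and 2, 0 and 5 counts in 0.75X MMR. Mhc1b.L, the only gene of the list named for MHC class I, was at 0 in every sample. Other genes of that name were not read, so the level of MHC class I as a whole was not tested. B2m.S, the light chain of MHC class I, had 11.0 to 30.4 counts. Of the 14 tested genes 0 passed the FDR limit, where 0.0178% of all tested genes did. An unadjusted p under 0.05 was reached by 2 (14.3%), where 4.39% of all tested genes reached it. These were irf1.L (log2 fold change 0.35, unadjusted p = 0.0421) and irf9.S (0.25, unadjusted p = 0.0250), both with adjusted p = 0.9997 by edgeR's quasi-likelihood test and both transcription factors of the interferon response.

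Leukocytes, the cells known to carry the immunoproteasome, were represented by their markers in all samples (11 of 13 symbols matched, 17 genes, 15 tested, 0 past the FDR limit). Their summed level was 245 to 359 CPM in 0.1X MMR against 250 to 327 CPM in 0.75X MMR, led by the myeloid peroxidase gene mpo.L with 562 to 1299 counts, while the pan-leukocyte gene ptprc.L had 19 to 38 counts and the lysozyme gene lyz.L had 1 count in 1 sample. At the FDR limit the share of all tested genes was 0.0178%. An unadjusted p under 0.05 was reached by 1 of the 15 tested markers (6.67%), where 4.39% of all tested genes reached it. This was lcp1.S with a log2 fold change of 0.53 (unadjusted p = 0.0202, adjusted p = 0.9997 by edgeR's quasi-likelihood test). The other copy, lcp1.L, had more counts (54.0 to 107) and a log2 fold change of 0.05 (unadjusted p = 0.7655 by the same test). The counts of both copies were fractions. The sums of the leukocyte list were 359, 264 and 245 CPM in 0.1X MMR against 327, 250 and 291 CPM in 0.75X MMR. In the same order of samples psmb8.L had 2, 1 and 1 counts against 3, 0 and 2 counts. Whether these counts follow the sums was not tested.

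**Figure D2:**
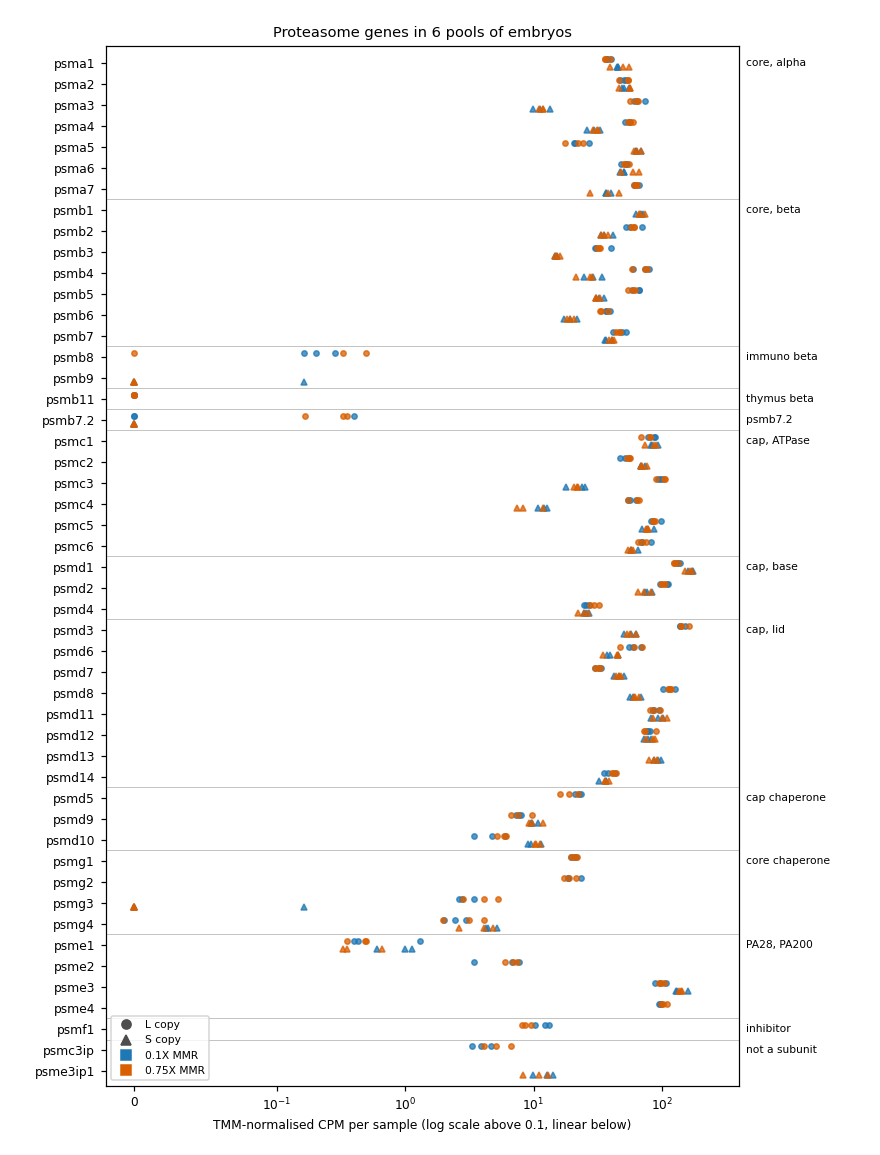
CPM (TMM-normalised, horizontal axis, logarithmic above 0.1 and linear below) of every proteasome gene in each of the 6 samples, with L copies as circles, S copies as triangles, 0.1X MMR in blue and 0.75X MMR in orange. The alpha, constitutive beta, ATPase, base and lid genes lie between 7.39 and 175 CPM, whereas psmb8, psmb9, psmb11 and psmb7.2 lie at or below 0.497 CPM in every sample. Among the alternative caps, psme1.S reaches down to 0.327 CPM.

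The ATPases of the cap, encoded by the psmc genes, unfold the protein and push it into the core. All 12 genes were tested, with 4 log2 fold changes above 0 and 8 below, from -0.37 to 0.11. Their sum was 784, 740 and 825 CPM in 0.1X MMR against 790, 801 and 717 CPM in 0.75X MMR. The gene with the most counts was psmc3.L, at 97.2, 93.6 and 99.6 CPM in 0.1X MMR against 105.8, 104.0 and 90.2 CPM in 0.75X MMR, and the groups overlapped. The one with the fewest was psmc4.S, at 11.99, 10.9 and 12.8 CPM in 0.1X MMR against 8.32, 11.9 and 7.39 CPM in 0.75X MMR, where one sample in 0.75X MMR lay among those in 0.1X MMR. Its log2 fold change was -0.37 (unadjusted p = 0.0631, adjusted p = 0.9997 by edgeR's quasi-likelihood test). By limma-voom its unadjusted p was under 0.05 (95% interval -0.79 to -0.01). Reads of psmc4.S were divided by the estimate with psmc4.L and LOC121396601, a gene outside the symbol rule and the sum. LOC121396601 had 63.9 to 105 counts. With psmc4.L and psmc4.S added up, the log2 fold change was 0.02 (unadjusted p = 0.875 by edgeR's quasi-likelihood test).

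The non-ATPase subunits of the base hold the ubiquitin receptors and the scaffold of the cap. Of the 6 genes (psmd1, psmd2 and psmd4), 5 had a log2 fold change below 0 and 1 above, from -0.10 to 0.20, and the sum was 561, 514 and 539 CPM in 0.1X MMR against 541, 517 and 500 CPM in 0.75X MMR. The gene of all members with the most counts was psmd1.S, at 175, 160 and 171 CPM in 0.1X MMR against 170, 164 and 150 CPM in 0.75X MMR. The fewest in this class came from psmd4.S, at 27.0, 25.8 and 24.6 CPM against 22.4, 24.7 and 26.4 CPM. The other copy of this ubiquitin receptor, psmd4.L, was one of the 3 genes without overlap, at 25.8, 27.1 and 24.9 CPM in 0.1X MMR against 29.6, 32.5 and 27.4 CPM in 0.75X MMR, with a log2 fold change of 0.20 (unadjusted p = 0.0745, adjusted p = 0.9997 by edgeR's quasi-likelihood test). Reads were divided between psmd4.L and psmd4.S by the estimate. With both copies added up, the log2 fold change was 0.07 (unadjusted p = 0.4155, adjusted p = 0.9998 by edgeR's quasi-likelihood test).

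The lid of the cap removes ubiquitin chains, through the deubiquitinase psmd14, before the protein is degraded. Its 15 genes had log2 fold changes of -0.11 (psmd13.S) to 0.12 (psmd14.L), the narrowest range among the core and cap classes, with 10 above 0 and 5 below. The sum was 1090, 995 and 1097 CPM in 0.1X MMR against 1083, 1139 and 1003 CPM in 0.75X MMR. The gene with the most counts was psmd3.L, at 152, 139 and 138 CPM in 0.1X MMR against 140, 163 and 141 CPM in 0.75X MMR. The one with the fewest was psmd7.L, at 33.8, 29.9 and 32.6 CPM against 30.2, 31.8 and 33.1 CPM, and the groups overlapped in both. Psmd14.L had 43.3, 35.7 and 38.0 CPM in 0.1X MMR against 44.1, 41.2 and 41.8 CPM in 0.75X MMR, with overlap as well.

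Assembly chaperones, which help to build the proteasome and then leave it, were read at 1.96 to 23.4 CPM for the tested genes. The 5 genes of the chaperones of the cap (psmd5, psmd9 and psmd10) summed to 55.8, 53.5 and 55.4 CPM in 0.1X MMR against 60.5, 53.4 and 47.6 CPM in 0.75X MMR. The most counts came from psmd5.L, at 23.4, 21.0 and 22.8 CPM against 22.4, 19.0 and 16.0 CPM, and the fewest from psmd10.L, at 4.71, 6.02 and 3.42 CPM against 6.13, 5.86 and 5.24 CPM. The groups overlapped in both. Of the 6 genes of the chaperones of the core (psmg1 to psmg4), 5 were tested. Psmg1.L had the most counts, at 20.7, 21.5 and 19.7 CPM in 0.1X MMR against 20.5, 19.7 and 21.8 CPM in 0.75X MMR, and psmg4.L the fewest of those tested, at 3.00, 2.44 and 2.01 CPM against 3.15, 4.08 and 1.96 CPM. Log2 fold changes of the tested chaperone genes ran from -0.27 (psmg4.S) to 0.46 (psmg3.L). An unadjusted p under 0.05 in edgeR was reached by 0 of these genes, where 4.39% of all tested genes reached it.

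The genes of the alternative caps ranged from values near the detection floor to 159 CPM. Psme3, the nuclear PA28 gamma cap, had 108, 88.0 and 96.5 CPM from its L copy in 0.1X MMR against 98.2, 94.95 and 104 CPM in 0.75X MMR, and psme3.S, the gene of the class with the most counts, had 159, 132 and 129 CPM against 143, 140 and 136 CPM. Psme4.L, the PA200 cap, was the second gene without overlap, at 95.8, 98.0 and 94.4 CPM in 0.1X MMR against 98.5, 109.8 and 102.3 CPM in 0.75X MMR (log2 fold change 0.11, unadjusted p = 0.202, adjusted p = 0.9997 by edgeR's quasi-likelihood test). Psme1 and psme2 encode the PA28 alpha and beta cap that interferon raises together with the immunoproteasome in mammals. Psme2.L (chr1L:150552877-150571669) had 7.66, 3.42 and 6.76 CPM in 0.1X MMR against 7.38, 6.88 and 5.99 CPM in 0.75X MMR, with the lowest value of both groups in 0.1X MMR replicate 2. Psme1 lay on either side of the filter. Psme1.S passed it with 7, 7 and 3 counts in 0.1X MMR against 4, 2 and 2 counts in 0.75X MMR, and psme1.L (chr1L:150588074-150598500) did not, with 3, 8 and 2 against 3, 2 and 3 counts. The fitted log2 fold change of psme1.S was -1.02 (unadjusted p = 0.105, adjusted p = 0.9997 by edgeR's quasi-likelihood test). The 95% interval from limma-voom ran from -2.14 to 0.24, so that a change of 2-fold was not detectable at this depth.

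The inhibitor psmf1, known as PI31 for its inhibition of the core in vitro, was the one gene with an unadjusted p under 0.05 in edgeR. Psmf1.L (chr9_10L:18835469-18839063) had 93, 63 and 61 counts in 0.1X MMR against 52, 46 and 58 counts in 0.75X MMR, or 13.3, 10.2 and 12.3 CPM against 8.61, 8.16 and 9.49 CPM. Every pool in 0.75X MMR was lower than every pool in 0.1X MMR, and it was the third gene without overlap. The means were 11.9 ± 1.54 CPM (SD, n = 3) in 0.1X MMR against 8.76 ± 0.68 CPM (SD, n = 3) in 0.75X MMR. The log2 fold change was -0.45, with an unadjusted p of 0.0151 and an adjusted p of 0.9997 by edgeR's quasi-likelihood test. The 95% interval from limma-voom was -0.79 to -0.09. In the log2 CPM that the authors adjusted for surrogate variables the difference of means was -0.43. Its unadjusted p was 0.0781 with edgeR without 0.1X MMR replicate 1, 0.0681 with DESeq2 and 0.0533 with limma-voom and 2 surrogate variables, each fitted across all tested genes. In the other settings it stayed under 0.05. With edgeR it ran there from 0.00682 without 0.1X MMR replicate 2 to 0.0498 without 0.75X MMR replicate 2. The difference did not pass the correction for 28075 tests, and 1 gene of 78 is below the share of all tested genes at that unadjusted p.

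The symbol rule also took in 2 genes that are not subunits. Psmc3ip.L, a recombination factor of meiosis named for its binding to psmc3, had 3.93, 4.67 and 3.32 CPM in 0.1X MMR against 5.12, 4.14 and 6.71 CPM in 0.75X MMR. Psme3ip1.S, named for its interaction with psme3, had 9.99, 14.2 and 12.7 CPM against 13.1, 8.34 and 11.1 CPM. The groups overlapped in both.

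The sums of the core, ATPase, base and lid classes were low in the same pools. In 0.1X MMR replicate 2 and 0.75X MMR replicate 3 the sums of the alpha, beta, ATPase, base and lid genes were the lowest 2 of the 6 samples, in all 5 classes. The smaller classes did not share this, as the alternative caps were lowest in 0.1X MMR replicates 2 and 3 (324 and 327 CPM, with 350 CPM in 0.75X MMR replicate 3), the chaperones of the core in 0.1X MMR replicate 3 and 0.75X MMR replicate 2 (47.3 and 47.9 CPM), and the chaperones of the cap in 0.75X MMR replicates 3 and 2 (47.6 and 53.4 CPM). Over all members the sum was 4160, 3865 and 4112 CPM in 0.1X MMR against 4124, 4132 and 3829 CPM in 0.75X MMR, so that these pools lay 4.26% and 5.15% below the mean of all samples. The means of the media were 4046 ± 158 CPM (SD, n = 3) and 4028 ± 173 CPM (SD, n = 3). Of the 70 genes averaging at least 50 counts, 16 (22.9%) had their lowest 2 values in these pools, where this was so for 10% of the 14300 tested genes in the same range of counts. The pattern was noticed in the data and has no test. The 2 pools were picked by the sums of these same genes, so a higher share among them than among other genes was built in. The depth of these pools was 6187769 and 6021977 counts, within the range of the others, and the median CPM of the genes in the same range was 27.8 and 27.7 in them and 28.0 to 28.1 in the other samples. Genes of the ubiquitin and proteasome system outside the rule summed to 4227 and 4115 CPM in these pools and to 4300 to 4374 CPM in the others. The antigen processing and interferon list was also lowest there, at 1912 and 1937 CPM against 1966 to 2115 CPM in the others. Most of that sum came from calr.L, calr.S, pdia3.L and pdia3.S, with 427, 795, 274 and 312 CPM in 0.1X MMR replicate 2. It therefore does not show whether the other genes of the list were low in these pools. The lists of leukocyte and whole-embryo markers did not have their lowest 2 sums in these pools. The part of depth or of pool composition in the pattern was not tested.

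**Figure D3:**
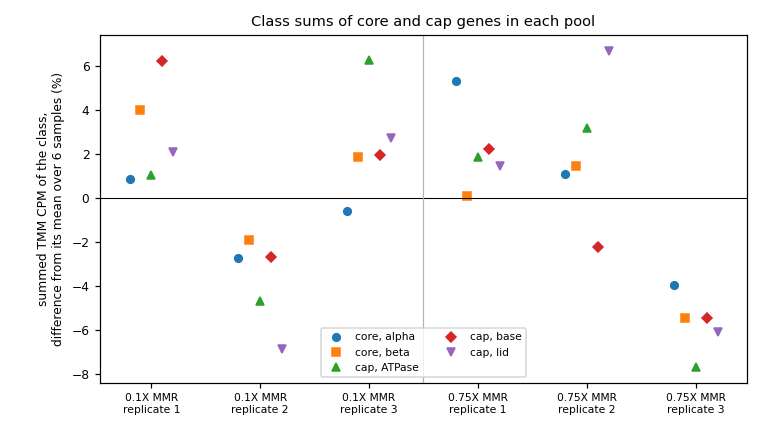
Summed CPM of 5 classes of proteasome genes in each sample, as the difference from the mean of the class over the 6 samples in percent (vertical axis), with the samples in 0.1X MMR left and those in 0.75X MMR right of the grey line. All 5 classes are lowest in 0.1X MMR replicate 2 and 0.75X MMR replicate 3, by 1.92% to 7.67% below their mean.

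Other genes of the ubiquitin and proteasome system were read from a list of 36 symbols, of which 33 matched 58 genes, all tested. None of them passed the FDR limit, where 0.0178% of all tested genes did. An unadjusted p under 0.05 in edgeR was reached by 0, where 4.39% of all tested genes reached it. The log2 fold change was above 0 for 36 and below 0 for 22, where 50.4% of all tested genes were below. Its median was 0.03 against -0.001 for all tested genes. Adrm1, a ubiquitin receptor of the cap whose symbol the rule leaves out, had 32.7, 25.2 and 33.5 CPM from adrm1.L in 0.1X MMR against 32.6, 33.0 and 29.0 CPM in 0.75X MMR, and adrm1.S had 46.7, 44.0 and 47.2 CPM against 46.4, 44.4 and 40.2 CPM. Pomp, the maturation factor of the core, had 31.1, 30.4 and 27.2 CPM from pomp.L in 0.1X MMR against 32.5, 35.5 and 27.7 CPM in 0.75X MMR, and pomp.S had 14.0, 15.3 and 17.5 CPM against 19.2, 15.8 and 16.3 CPM. The groups overlapped in all of them.

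Sem1.S, the smallest subunit of the lid, had 7.28, 5.69 and 6.82 CPM in 0.1X MMR against 5.49, 5.23 and 6.34 CPM in 0.75X MMR, also with overlap. Another gene annotated as SEM1, LOC108718846 (chr6L:33696808-33699519), had 113 to 149 counts against 29.5 to 51 of sem1.S, their sum was whole in 6 of 6 samples (within 0.015), and it took 77.8 ± 2.06% (SD over n = 6) of the counts of both, so that the values of sem1.S are the smaller part of SEM1. The genes of the list with the lowest p were uchl5.L, a deubiquitinase of the cap (log2 fold change 0.17, unadjusted p = 0.0747), rps27a.S, which encodes ubiquitin fused to a ribosomal protein (-0.14, unadjusted p = 0.0884), and ube3c.S, a ubiquitin ligase that binds the cap (-0.15, unadjusted p = 0.149), all with adjusted p = 0.9997 by edgeR's quasi-likelihood test. Uchl5.L had 45.5, 43.6 and 49.7 CPM in 0.1X MMR against 54.9, 50.04 and 51.1 CPM in 0.75X MMR. Rps27a.S had 157, 163 and 145 CPM against 141, 141 and 138 CPM, and ube3c.S had 26.5, 25.9 and 27.6 CPM against 24.2, 23.7 and 23.99 CPM. The samples of the media did not overlap in these 3 genes, as in 9.74% of all tested genes. They were chosen for their p, a choice that favours genes without overlap.

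In most pairs both the L and the S copy contributed to the counts. Of the 36 pairs 34 had a mean of at least 10 counts over both copies, and log2 of L over S was fitted with limma over all 7213 such pairs of the genome. In 8 of the 34 pairs (23.5%) one copy was at least 2-fold higher at an FDR of 0.05, where 41.9% of all pairs were. The L copy was higher in 7 of these (29.1% of all pairs) and the S copy in 1 (12.8% of all pairs). Without a minimum ratio, 29 pairs passed (83.8% of all pairs), and the L copy was higher in 19 pairs (54.4% of all pairs) and the S copy in 10 (29.4% of all pairs), and psma2, psma6, psmc1, psmd4 and psmd12 did not pass the FDR limit. The median absolute log2 ratio was 0.54 against 0.82 for all pairs. Among pairs with a mean of at least 100 counts, 7 of 31 proteasome pairs and 37.9% of all pairs passed the 2-fold limit, and the medians were 0.51 and 0.73. Counts are not corrected for the lengths of the transcripts of the copies, which also enter these ratios.

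The constitutive beta subunits paired by symbol leaned to L. The L copy was higher at the FDR limit in 6 of 6 such pairs (54.4% of all pairs), while psmb1, whose L gene was found by its annotation, leaned to S. In the 6 pairs L held 63.1% to 65.7% of the counts of these pairs in every sample, with psmb3 and psmb4 past 2-fold. The alpha pairs were divided, 3 to L and 2 to S of 7, and L held 51.9% to 55.5% of their counts. Of the ATPase pairs 4 of 6 leaned to L and 1 to S (57.5% to 58.6% from L), of the lid pairs 4 of 7 to L and 2 to S (56.4% to 58.6%), and of the base pairs 1 of 3 to each side (49.0% to 50.9%). Both chaperone pairs of the cap leaned to S, with 35.2% to 41.7% of their counts from L. A lean to L was common in the genome, with L higher at this limit in 54.4% and S in 29.4% of all pairs. The median log2 ratio of L over S was 0.22 for the proteasome pairs and 0.35 for all pairs.

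The pairs with the highest share of L were psmg3, psmc4, psma3 and psmc3. Psmg3.L (chr9_10L:106298093-106301487) had 24, 17 and 13 counts in 0.1X MMR against 32, 16 and 25 counts in 0.75X MMR, and psmg3.S (chr9_10S:92568065-92575152) had 1 count in 1 sample. Psma3 had 88.2%, 84.3% and 82.5% of its counts from L in 0.1X MMR against 84.7%, 85.1% and 82.8% in 0.75X MMR (mean 84.6 ± 2.0%, SD over n = 6). Psmc3 had 84.4%, 79.8% and 80.0% from L in 0.1X MMR against 82.6%, 82.7% and 81.3% in 0.75X MMR (mean 81.8 ± 1.8%, SD over n = 6). The genes psma3.L (chr8L:95049159-95071197) and psma3.S (chr8S:6929662-6946571) had 316 to 521 and 62 to 72 counts, all whole numbers, so that no read was divided between them.

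The pairs with the lowest share of L were psma5, psmd10, psmg4 and psmd7. Psma5 was the one pair with an S copy at least 2-fold higher, with 24.5%, 24.8% and 28.1% of its counts from L in 0.1X MMR against 25.9%, 21.8% and 26.7% in 0.75X MMR (mean 25.3 ± 2.2%, SD over n = 6, log2 ratio -1.56 ± 0.07 SE, FDR 4.34e-10 by limma). The next pair, psmd10, lay just outside the 2-fold limit at a log2 ratio of -0.996 ± 0.15 SE, with shares of 34.02%, 38.5% and 23.0% in 0.1X MMR against 37.4%, 34.4% and 33.3% in 0.75X MMR, and it passed the limit when 0.1X MMR replicate 1, 0.1X MMR replicate 2 or 0.75X MMR replicate 1 was left out. Psmg4 had 40.4%, 31.9% and 32.3% from L in 0.1X MMR against 39.6%, 50% and 42.9% in 0.75X MMR, from 16.7 counts of L and 25.3 of S on average. Psmd7 was much steadier, with 42.2%, 41.1% and 39.2% in 0.1X MMR against 40.7%, 40.0% and 41.6% in 0.75X MMR.

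**Figure D4:**
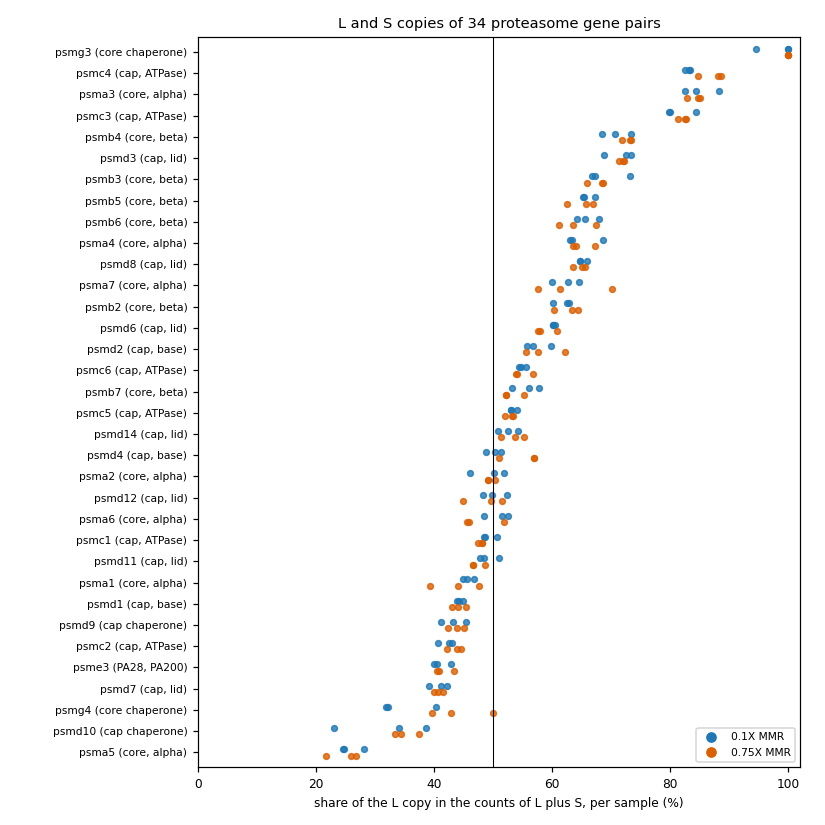
Share of the L copy in the counts of L plus S (horizontal axis, percent) for 34 pairs of proteasome genes in each sample, ordered by the mean share, with 0.1X MMR in blue, 0.75X MMR in orange and a line at 50. The mean runs from 25.3% for psma5 to 99.1% for psmg3, and the samples of a pair lie close together, with a median SD of 1.94 percentage points over the 6 samples.

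The copy shares did not change with the medium at the FDR limit. The ratio of L to S differed between the media in 0 of 34 pairs at an FDR of 0.05 (0% of all pairs) by limma, and 1 pair had an unadjusted p under 0.05 (5.03% of all pairs). The L share did not overlap between the media in 2 pairs, psmc1 and psmc4 (10.3% of all pairs). The 95% interval of the difference in log2 ratio lay within 0.5 either side of 0 in 28 pairs and within 1 in 32. The pairs outside 1 were psmg3 and psmg4, which had the fewest counts.

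Psmc4, the pair with an unadjusted p under 0.05, had 82.5%, 83.4% and 83.2% of its counts from L in 0.1X MMR against 88.5%, 84.7% and 88.1% in 0.75X MMR. All samples in 0.75X MMR lay above all in 0.1X MMR, with a difference in log2 ratio of 0.47 (95% interval 0.16 to 0.79, unadjusted p = 0.00666, adjusted p = 0.768 by limma). The counts of psmc4.L (chr7L:132774816-132789088) and psmc4.S (chr7S:108581310-108599697) were fractions, 313.81 and 63.49 in one sample for example, and their sum was not whole. With another gene on the S subgenome, LOC121396601 (chr7S:107150019-107163732, annotated as 26S proteasome regulatory subunit 6B-like), the sum was whole in 6 of 6 samples to within 0.01. Reads were thus divided among the 3 genes by the estimate. LOC121396601 had 96.1, 76.6 and 71.7 counts in 0.1X MMR against 85.1, 63.9 and 105 counts in 0.75X MMR. When it was counted with psmc4.S, a step chosen after the data were seen, the L share was 70.9 ± 2.4% (SD over n = 6) and the difference in log2 ratio between the media was 0.19 (95% interval -0.08 to 0.47, unadjusted p = 0.151, adjusted p = 0.9749 by limma).

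Division of reads concerned most pairs. Both copies had whole counts in every sample in 9 of the 36 pairs, among them psma3, psmb5, psmd10, psmg3 and psmg4. No read was thus divided between the copies of these pairs. Whether each read matched one copy only was not tested. This limit matters most for psmg3, as psmg3.S had 1 count in 0.1X MMR replicate 2 and 0 in every other sample. In 24 pairs the copies had fractions and their sum was whole in every sample (within 0.015), and in the remaining 3, psmc4, psmd1 and psme3, it was not. Psmb1.S, which had no L partner by symbol, likewise had a whole sum in 6 of 6 samples with LOC121393661 (chr5L:51671736-51683020), annotated as proteasome subunit beta type-1-B-like. Taken as a pair after the data were seen, they had 44.9 ± 1.7% (SD over n = 6) of their counts from the gene on L, at a log2 ratio of -0.29.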

How the data were processed

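Total RNA depleted of ribosomal RNA was measured in 3 pools of 10 whole embryos per medium. The authors trimmed reads with fastp, aligned them with STAR to version 10.1 of the genome and deposited the expected counts (estimated counts per gene) of RSEM, not normalized. Of the nonzero values of proteasome genes 62.7% were not whole numbers (within 0.005), and 42.5% over all genes, since RSEM divides ambiguous reads. A second deposited file holds log2 CPM of 24661 genes (77 of the 85), normalized with TMM and voom and adjusted for surrogate variables by the authors. It was used for 1 value without a test and for its gene descriptions. LOC121393661, LOC121396601 and LOC108718846 were found by these descriptions, so unnamed genes outside the 24661 could not be found that way.

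Counts were rounded and tested with edgeR 4.0.16 (TMM, quasi-likelihood, medium as the only term, filter of CPM over 0.6 in at least 3 samples, FDR 0.05, two-sided). Intervals and copy ratios came from limma 3.58.1, with a pseudocount of 0.5 on each copy and a minimum mean of 10 counts for L plus S. DESeq2 1.42.0, limma-voom with 2 surrogate variables from sva 3.50.0 and other settings were alternatives. R 4.3.3 and Python 3.11.15 were used, and the functions were tested on simulated data. The gene table used for positions (RefSeq, version 10.1, 85 of 85 matched) held gene spans and no transcript lengths, so the length correction that was planned for levels and copy ratios was not applied, and no sequences are printed.

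Depth was 5024957 to 7045215 counts per sample, and counting error limits genes with few counts most. Columns of samples all matched a label (0 did not). The members and the gene lists were chosen with earlier results of these data known. Genes with values in every sample were chosen by rule: psmb5 to psmb9, members with an unadjusted p under 0.05, the genes with most and fewest counts among those tested in each class, the 4 pairs with the highest and the 4 with the lowest L share, genes at the filter, and of the partner list adrm1, sem1, pomp and the 3 lowest p. Others are named as chosen after their values were seen, which holds for psmd4.L, psme4.L, psmd14.L and the genes of the immune and marker lists. One gene of the antigen processing and interferon list is not reported here.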

Additional observations from a re-analysis of the deposited data

How the results depend on the processing

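The count of proteasome genes that differed between the media stayed at 0 with DESeq2, limma-voom with and without 2 surrogate variables, size factors of DESeq2 in edgeR, no filter on low counts, L and S counts added up, and each sample left out in turn (0 to 0). The partner list stayed at 0 with limma-voom and without each sample (0 to 0). The log2 fold change of psmf1.L was below 0 in each of these settings in which it was fitted on its own, from -0.55 to -0.35 without single samples. The number of pairs with a copy at least 2-fold higher was 8 to 9 without single samples, 7 with a minimum mean of 50 counts, 9 with a minimum mean of 1, 8 with a pseudocount of 2 and 29 with no minimum ratio, which is a looser limit by construction. Pairs whose ratio differed between the media stayed at 0 in every setting, single samples left out included (0 to 0). Class sums moved by less than the spread between samples with plain CPM and without single samples, and so did the share of psmb8 and psmb9 without single samples. The mean of that share over samples was 0.117%, and it was 0.184% against psmb5 and psmb6 only and 0.205% with psmb7.2 counted in, both chosen after the data were seen.

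Samples with the same number did not deviate together (correlations over genes of -0.02, -0.03 and -0.11). For samples with different numbers the correlations were -0.04 to 0.07. With 3 samples per medium, such values cannot decide whether equal numbers mark a shared clutch or batch, which the labels do not name. With the replicate block, the count of proteasome genes called was 0, of partner genes 0, of pairs 8 and of pairs that differed between the media 0. Settings without a length correction could not be run as alternatives because the main values have none, and plain CPM leaves the share of psmb8 and psmb9 as it is.

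Depth limits psmb8.L, psmb9.S and psmb7.2.L most: each had at most 3 counts in a sample, and 0 of them were called when tested without the filter.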
